A study of Mus musculus with 24 samples.

Results

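Complex I of the respiratory chain was followed through the nuclear genes whose symbols begin with Nduf, in choroid plexus tissue of 24 mice measured on 1 Illumina array each. A gene was a member when 1 of its probes had a detection p-value below 0.01 on at least 3 arrays, and it was represented by its brightest probe. This left 38 of the 40 Nduf genes that have a named probe, out of 8232 genes tested on the arrays. The members comprise 5 core subunits, 9 accessory subunits of the matrix arm, 7 of the proximal membrane arm, 10 of the distal membrane arm and 5 assembly factors. The remaining pair are Ndufa4, whose product is now assigned to cytochrome c oxidase (complex IV), and Ndufs5-ps, annotated as a transcribed pseudogene of the subunit gene Ndufs5. The probe named Ndufs5-ps cannot be told apart here from one for Ndufs5 itself, since probe sequences were not used here.

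Complex I oxidises NADH in the mitochondrial matrix and passes the electrons through a flavin and a chain of iron-sulfur clusters to ubiquinone, while its membrane arm pumps protons. The catalytic work is done by core subunits, encoded in part by mitochondrial DNA, and the accessory subunits surround and stabilise this core. The choroid plexus is an epithelium with many mitochondria that secretes cerebrospinal fluid and drives ion transport with ATP.

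The study compared WT mice with J20 mice, and the sample titles write AD where the genotype label says J20. As background, J20 mice carry a human amyloid precursor protein transgene with the Swedish and Indiana mutations under a PDGF-B promoter, which acts mainly in neurons. The labels give neither the strain background nor whether the WT mice were littermates. Ages were 3 months (3 WT, 4 J20), 5-6 months (4 WT, 4 J20) and 11-12 months (6 WT, 3 J20), and each replicate is 1 animal, named by the number in its title. The arrays lay on 3 BeadChips (glass slides) of 8 arrays each, and BeadChip 1 held no J20 animal of 11-12 months. The upper quartile of the deposited log2 intensity ran from 7.44 to 8.56 between arrays, and 34.97% to 41.6% of the 25697 probes were detected per array. As a check of the tissue, all 10 epithelial markers with a named probe (among them Ttr, Kl, Aqp1 and Folr1) were detected on all 24 arrays. Some markers of other cells were detected as well. The neuron marker Thy1 and the myelin marker Mbp were found on 24 arrays and the neuron marker Syt1 on 21. The neuron markers Snap25 and Nefl were detected on 0. In bulk tissue, fewer cells of a type and less RNA per cell cannot be told apart.

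Of the Nduf genes with a probe, Ndufs1, the core subunit that carries several iron-sulfur clusters, and Ndufab1, the acyl carrier protein, were not detected on any array (0 of 24 each). Their levels are therefore not known to be low, since a probe can fail. The accessory subunits Ndufa11 and Ndufb1 and the assembly factors Ndufaf2, Ndufaf6 and Ndufaf8 have no named probe here. None of the 7 subunits encoded in mitochondrial DNA has a named probe, so the results concern nuclear transcripts. Between 35 and 38 members were detected per array, and 34 members on every array. The exceptions were Ndufb4, detected on 11 arrays, Ndufb11 on 15, Ndufaf7 on 21 and Ndufb9 on 23.

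The promoters of 4 members are shown first, as the 250 bases before the RefSeq transcription start (build GRCm38.p6), read 5′ to 3′ on the strand of the gene. Ndufb4 and Ndufb11, both of the distal membrane arm, had the smallest unadjusted p-values between groups, and Ndufs3 is the core subunit that differed between BeadChips. Ndufaf4 passed no test below and is shown only for its match to the searched motif of NRF1, a transcription factor known to bind promoters of respiratory chain genes. Capitals mark the searched motif found in each by its exact letters (none in Ndufb11). The regions are chr16:37654369-37654618 on the minus strand for Ndufb4, chrX:20617620-20617869 on the minus strand for Ndufb11, chr2:90904722-90904971 on the minus strand for Ndufs3 and chr4:24897833-24898082 on the plus strand for Ndufaf4.
Ndufb4: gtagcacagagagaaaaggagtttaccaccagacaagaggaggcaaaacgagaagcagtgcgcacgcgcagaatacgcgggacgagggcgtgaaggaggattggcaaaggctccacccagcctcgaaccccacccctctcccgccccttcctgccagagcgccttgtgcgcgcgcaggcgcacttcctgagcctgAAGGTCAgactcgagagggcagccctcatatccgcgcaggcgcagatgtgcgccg
Ndufb11: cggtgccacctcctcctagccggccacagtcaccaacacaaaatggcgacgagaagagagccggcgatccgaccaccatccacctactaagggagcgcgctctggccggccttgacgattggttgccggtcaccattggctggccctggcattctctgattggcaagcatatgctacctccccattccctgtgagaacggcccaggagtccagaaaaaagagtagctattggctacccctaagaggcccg
Ndufs3: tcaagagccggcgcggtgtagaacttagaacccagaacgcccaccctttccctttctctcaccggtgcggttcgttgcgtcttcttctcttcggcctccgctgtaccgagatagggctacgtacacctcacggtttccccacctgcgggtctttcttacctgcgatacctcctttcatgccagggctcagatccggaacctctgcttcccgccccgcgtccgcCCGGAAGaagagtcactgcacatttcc
Ndufaf4: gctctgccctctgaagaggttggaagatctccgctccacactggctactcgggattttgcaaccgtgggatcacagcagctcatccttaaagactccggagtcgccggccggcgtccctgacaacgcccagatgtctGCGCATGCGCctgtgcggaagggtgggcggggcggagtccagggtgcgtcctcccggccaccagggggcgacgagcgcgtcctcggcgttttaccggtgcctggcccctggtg

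Promoters were found in the RefSeq table for 35 of the 38 members (all but Ndufa2, Ndufb9 and Ndufs5-ps), and 4 motifs were searched by their exact letters on both strands of the same 250 bases. Members were counted by gene, with a match in any of their 37 promoter entries. The background was counted by promoter entry, so the 2 percentages have unlike units. The NRF1 recognition core GCATGCGC was present in 3 of 35 members (8.57%: Ndufa6, Ndufa8 and Ndufaf4) and in 2.26% of all 32851 promoters. The stretch in capitals in Ndufaf4 holds this site on both strands, the 2 copies overlapping. The ETS core CCGGAAG was present in 4 members (11.4%: Ndufaf1, Ndufb6, Ndufb7 and Ndufs3) and in 6.91% of all promoters. The recognition core AAGGTCA of the estrogen-related receptors was present in 2 members (5.71%: Ndufb2 and Ndufb4), against 4.08% of all. TATAAA was present in 4 members (11.4%), against 12.4% of all. Apart from that overlap within Ndufaf4, each printed promoter holds at most 1 match to these exact letters. Variants of a motif were not searched, so the counts can miss sites. The printed Ndufb4 promoter, for example, holds GCACGCGC, which differs from the NRF1 string by 1 letter and is not marked. A match describes letters and not a bound site.

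No member passed the test between any of the groups compared. In each of 10 comparisons of genotype or age, 0 of 38 members passed an adjusted p of 0.05 (limma's moderated test on all 24 arrays, Benjamini-Hochberg over all 11464 probes tested). The background was as low. The share of all probes called was 0% in J20 against WT at 3, at 5-6 and at 11-12 months and over the 3 ages, and 0% in WT at 5-6 against 3 months and in J20 at 5-6 against 3 months. It was 0.105% in WT at 11-12 against 3 months, 0.0436% in WT at 11-12 against 5-6 months, 0.0611% in J20 at 11-12 against 3 months and 0.0349% in J20 at 11-12 against 5-6 months. The F test of an interaction of genotype and age called 0 members and 0% of probes, and the F test of any difference among the 6 groups called 0 members and 0.0872% of probes. At an unadjusted p of 0.05 the counts stayed low as well. Between genotypes 0 members were below it at 3 months (0.898% of probes were) and 0 at 5-6 months (1.26%), and 1 at 11-12 months (5.85%). In WT 0 members were below it at 5-6 against 3 months (2.57% of probes), 0 at 11-12 against 3 months (4.41%) and 0 at 11-12 against 5-6 months (1.65%). In J20 0 were at 5-6 against 3 months (3.18%), 2 at 11-12 against 3 months (5.31%) and 0 at 11-12 against 5-6 months (1.34%). The interaction gave 0 (1.47% of probes), and the test among all groups gave 1 (2.97%). The smallest p of a member in both F tests was that of Ndufb4, at 0.0279 among the groups (adjusted p = 1) and 0.0982 for the interaction (adjusted p = 0.986).

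**Figure D1:**
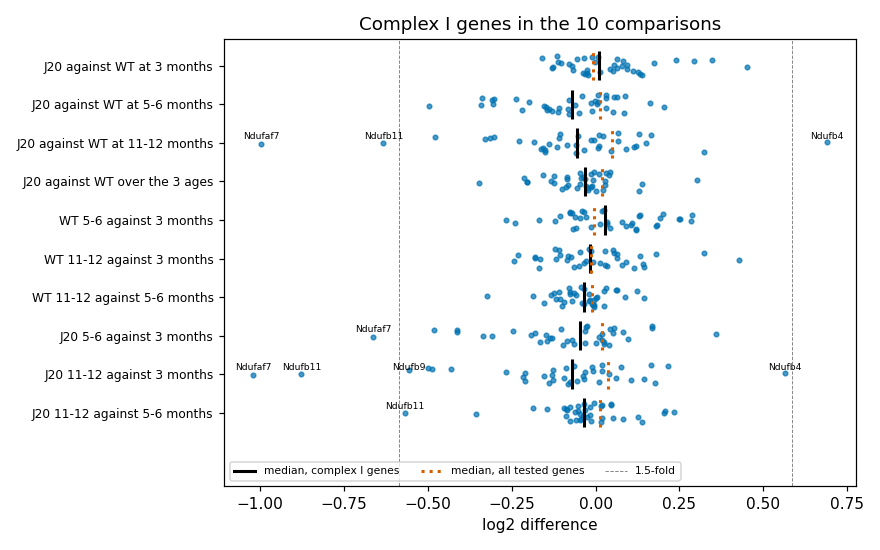
Log2 difference (x axis) of each of the 38 complex I genes (points) in the 10 comparisons (rows), with the median of these genes (solid line), the median of all 8232 tested genes (dotted line) and 1.5-fold in either direction (dashed lines). Most points lie inside 1.5-fold, and the named genes, those farthest out, did not pass the test.

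The differences were small in size as well as uncalled. In J20 against WT the median log2 difference of the members was 0.01 at 3 months, -0.07 at 5-6 months and -0.06 at 11-12 months, beside -0.01, 0.01 and 0.05 for all tested genes. Above 0 were 20, 13 and 15 of the 38 members at these ages. In WT the median was 0.03 at 5-6 against 3 months and -0.02 at 11-12 against 3 months, and in J20 it was -0.05 and -0.07 in the same comparisons. These 4 medians and the 3 between genotypes share groups with each other and are not independent. No direction is read from them: 10 of 100 medians under other processing had the opposite sign. Each was smaller than the spread between animals of a group, 0.119 (pooled SD of the list mean).

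How far a change can be bounded depended on the comparison. Over the 3 ages, the 95% interval of J20 minus WT lay within 1.5-fold in either direction for 33 of 38 members, beside 85.5% of all probes. At single ages this held for 28 members at 3 months (42.4% of probes), 26 at 5-6 months (49.1%) and 25 at 11-12 months (39.7%). In WT it held for 25 members at 5-6 against 3 months (40.5% of probes), 27 at 11-12 against 3 months (43.5%) and 29 at 11-12 against 5-6 months (57.9%). In J20 it held for 28, 24 and 27 members in the same comparisons (44.4%, 34.6% and 43.1%). For the other members the interval reached past 1.5-fold in at least 1 direction. A change of that size in that direction was not excluded with these numbers of animals.

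**Figure D2:**
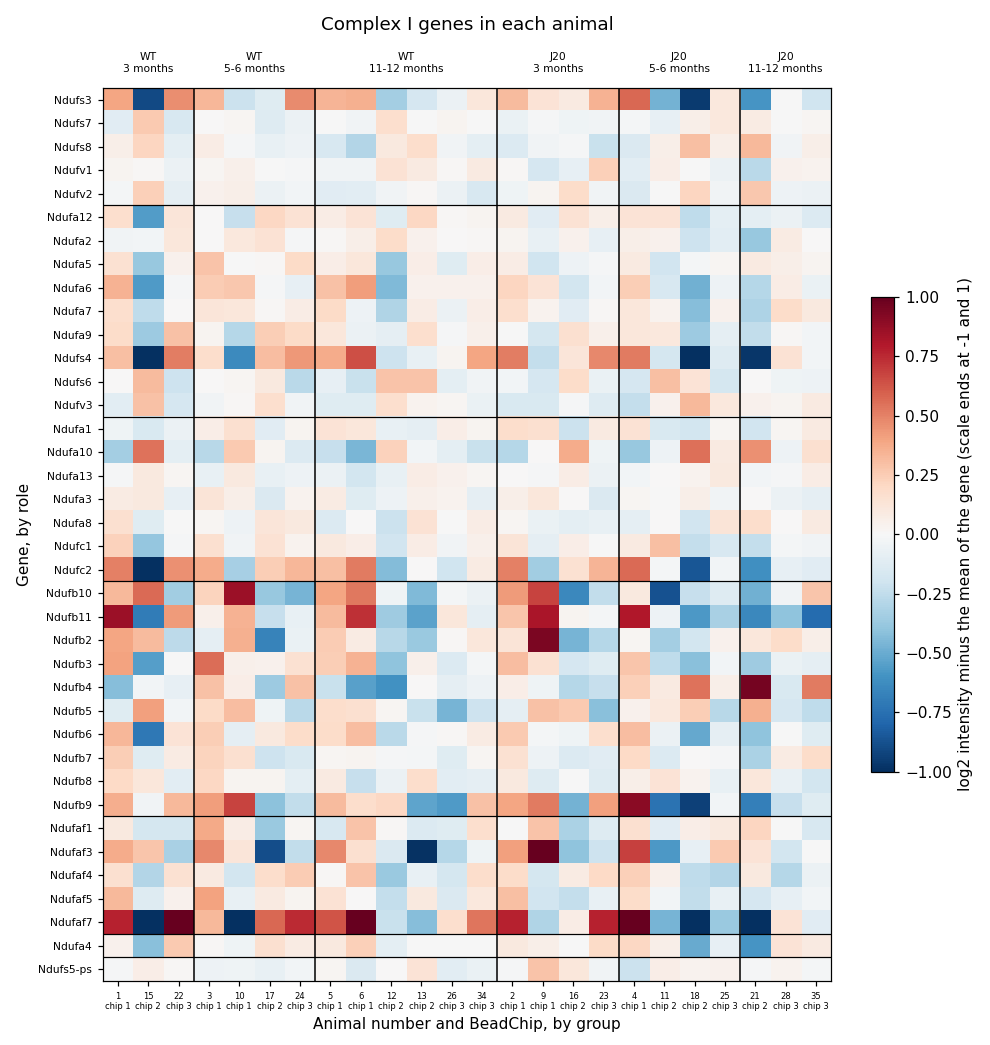
Log2 intensity of each complex I gene (rows, ordered by role) minus its mean over all animals, in each of the 24 animals (columns, by group, with animal number and BeadChip). Colour ends at -1 and 1. No group of columns stands out, while the BeadChip 2 animals WT 3 months 15, J20 5-6 months 18 and J20 11-12 months 21 are low in many rows.

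The core subunits Ndufv1, Ndufv2, Ndufs7 and Ndufs8 stayed close to 1 level in all 6 groups, with pooled SDs within groups of 0.10 to 0.15 on the log2 scale. Ndufv1, which binds NADH and the flavin, measured 13.02 ± 0.04 (SD, n = 3) in WT and 13.03 ± 0.17 (n = 4) in J20 at 3 months, on the log2 intensity scale. At 11-12 months it measured 13.07 ± 0.07 (n = 6) in WT and 12.97 ± 0.18 (n = 3) in J20, a log2 difference within that spread. Ndufv2, its iron-sulfur partner, lay at 13.65, 13.61 and 13.53 in WT and 13.64, 13.62 and 13.66 in J20 (group means in order of age). Ndufs7 and Ndufs8 carry the last iron-sulfur clusters before the quinone. Ndufs7 kept to a range of 12.93 to 13.01 in its 6 group means. Ndufs8 had the lowest log2 difference of any member in J20 against WT at 3 months, -0.16 ± 0.13 (SE, adjusted p = 0.999 by limma), and was 0.21 ± 0.13 in J20 at 11-12 against 3 months (adjusted p = 0.81).

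Ndufs3, a core subunit of the quinone-side module, varied far more between animals of a group than these 4, with a pooled SD of 0.44. In J20 its values were 11.92, 11.74, 11.70 and 11.96 at 3 months, 12.18, 11.13, 10.65 and 11.71 at 5-6 months, and 11.02, 11.61 and 11.40 at 11-12 months. The 3 oldest J20 animals were all below the 4 youngest, in a comparison where the groups did not overlap for 8.8% of all probes. The difference was -0.49 ± 0.32 (SE, adjusted p = 0.81, limma). In WT the values overlapped at every age, from 10.71 to 12.07 at 3 months alone.

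Among the accessory subunits of the matrix arm, Ndufs4, needed to complete the NADH-oxidising module, had the widest spread (pooled SD 0.57) and Ndufa2 the narrowest (0.11). Ndufa5 was lower by 0.15 ± 0.12 in WT at 11-12 against 5-6 months, the member with the second smallest p there (adjusted p = 1, limma). Ndufv3 was 0.16 ± 0.13 in J20 at 11-12 against 3 months, and the 3 older animals (14.17 to 14.24) all lay above the 4 younger ones (13.99 to 14.14), without passing the test (adjusted p = 0.81). The groups did not overlap for 8.8% of all probes there. This probe of Ndufv3 was also higher on BeadChip 2 than on BeadChip 1 (0.24, adjusted p = 0.0168, limma), and BeadChip 1 held none of the older J20 animals. Ndufa6 was -0.22 ± 0.20 in J20 against WT at 5-6 months (adjusted p = 1). Ndufa12 was 0.14 ± 0.15 in WT at 11-12 against 3 months (adjusted p = 0.993).

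In the proximal membrane arm, Ndufa13 (also called GRIM-19) had the smallest spread of all members, a pooled SD of 0.07, and ran from 14.49 to 14.77 over the 24 animals. Ndufa3 followed at 0.09. Ndufa10, related in sequence to nucleoside kinases, was 0.32 ± 0.21 in J20 against WT at 11-12 months (adjusted p = 0.7, limma). Ndufa1 was 0.14 ± 0.12 in J20 against WT at 3 months (adjusted p = 0.999) and 0.11 ± 0.11 in WT at 11-12 against 3 months (adjusted p = 0.993). Ndufc2 had the highest difference of any member in WT at 5-6 against 3 months, 0.29 ± 0.37 (adjusted p = 1), and it was -0.32 without WT 3 months animal 15. Ndufa8 was 0.13 ± 0.11 in J20 at 11-12 against 5-6 months (adjusted p = 1).

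The distal membrane arm held the members nearest to a call, Ndufb4 and Ndufb11, both with dim probes. Ndufb4 has the annotated copies Ndufb4b and Ndufb4c, and which of them its probe reads is uncertain. Its log2 intensity at 11-12 months was 6.51, 5.40 and 6.08 in the J20 animals 21, 28 and 35. In the 6 WT animals of that age it ran from 4.95 over a median of 5.40 to 5.56, with 2 of the 6 detected. Animals 21 and 35 were the high ones, animal 28 was not detected and lay among the WT values, so the groups overlapped.

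The difference of Ndufb4 in J20 against WT at 11-12 months was 0.69 ± 0.21 on the log2 scale (SE, 95% interval 0.26 to 1.12), with an unadjusted p of 0.00314 and an adjusted p of 0.7 by limma. It was the only 1 of the 38 members below an unadjusted p of 0.05 in this comparison, where 5.85% of all probes were. Within BeadChips the difference was 1.26 on BeadChip 2 and 0.25 on BeadChip 3. Ndufb4 measured 5.13, 5.53 and 5.47 in WT and 5.62, 5.51, 5.27 and 5.33 in J20 at 3 months. At 5-6 months it measured 5.85, 5.63, 5.19 and 5.85 in WT and 5.79, 5.65, 6.10 and 5.62 in J20. At these ages the genotypes overlapped. In J20 at 11-12 against 3 months it was 0.56 ± 0.22 (unadjusted p = 0.02, adjusted p = 0.81), and over the 3 ages J20 minus WT was 0.30 ± 0.12 (unadjusted p = 0.0228, adjusted p = 1, 1.98% of all probes below 0.05). The size of the difference at 11-12 months depended on the processing. It was 0.21 on the log2 values of the authors, which have no background correction, and 0.43 to 0.99 with 1 animal left out. Its adjusted p ran from 0.0483, with arrays weighted by their scatter about the group means, to 1 over the alternatives. The largest of these weights, 4.69, went to J20 animal 35, the array of lowest signal.

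Ndufb11 was not detected in any of the 3 J20 animals of 11-12 months, at 4.99, 5.23 and 4.86. It was detected in all 4 J20 animals of 3 months, at 5.90, 6.44, 5.65 and 5.61, all above the older animals. At 5-6 months the J20 values were 6.43, 5.58, 5.06 and 5.30, with the first 2 detected. The fitted difference of 11-12 against 3 months was -0.88 ± 0.35 (95% interval -1.60 to -0.16, unadjusted p = 0.019, adjusted p = 0.81 by limma). Since the probe was not above background in the older group, the group means bound the fold only from below, at 1.15. This bound takes no account of the spread between animals, and the difference did not pass the test. On the log2 values of the authors the difference was -0.24. Its adjusted p ran from 0.0347, with arrays weighted by their scatter about the group means, to 1 over the alternatives. Ndufb11 and Ndufb4 were the 2 members below an unadjusted p of 0.05 there, beside 5.31% of probes.

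In WT of 11-12 months Ndufb11 ran from 5.09 over a median of 5.64 to 6.36, with 4 of 6 animals detected. The 3 J20 animals overlapped with this range, and the adjusted p was 0.7. No fold is given, since the J20 values were not above background and the bound was under 1. The fitted log2 difference was -0.63, and -0.17 on the log2 values of the authors. Its adjusted p ran from 0.0474, with array weights, to 1. The J20 animals of 3 months on BeadChip 1 gave the highest values of their group, and that slide held no J20 animal of 11-12 months. With BeadChip as a block the fitted difference of 11-12 against 3 months in J20 was -0.58 (adjusted p = 0.561). It was -0.67 on BeadChip 2 and -0.57 on BeadChip 3. These fitted values are taken against a level not above background and are no measure of the fold.

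**Figure D3:**
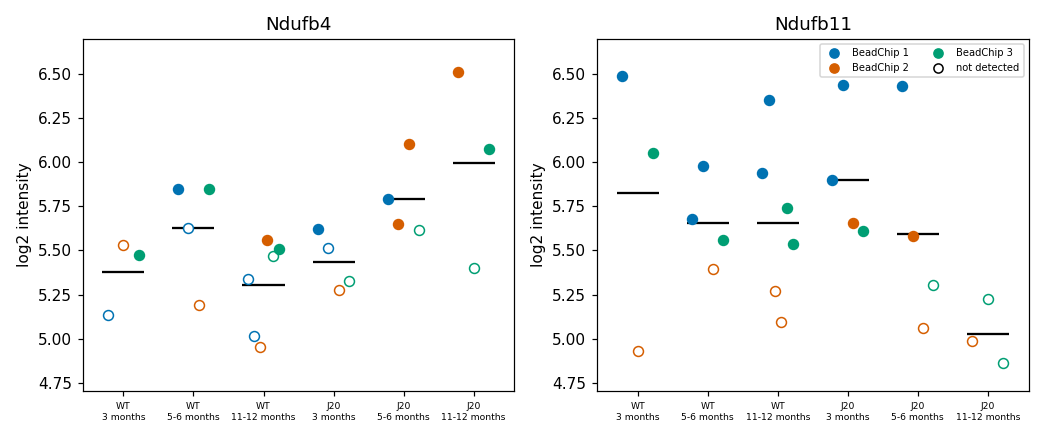
Log2 intensity (y axis) of Ndufb4 and Ndufb11 in each animal, by group (x axis), coloured by BeadChip, with filled points detected and open points not detected. Horizontal lines are group means. The J20 animals of 11-12 months hold the highest Ndufb4 value and no detected Ndufb11 value.

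Few members had groups without overlap. In J20 at 11-12 against 3 months 4 of 38 members did not overlap (Ndufb11 and Ndufs3 lower, Ndufs7 and Ndufv3 higher), beside 8.8% of probes. In WT at 5-6 against 3 months Ndufs5-ps alone did not overlap, at lower values (2.57% of probes), and in J20 at 11-12 against 5-6 months Ndufb2 alone, at higher values (1.78% of probes). In the other comparisons of 2 groups 0 members did so, where the shares of probes were 1.22%, 0.645% and 3.82% between genotypes in order of age, 2.02% and 0.672% in WT and 2% in J20. Other distal members did not pass the test. Ndufb3 was -0.31 ± 0.20 in J20 against WT at 5-6 months (adjusted p = 1), Ndufb8 was -0.11 ± 0.12 at 3 months (adjusted p = 0.999), and Ndufb2 was 0.23 ± 0.27 in J20 at 11-12 against 5-6 months (adjusted p = 1).

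Of the assembly factors, Ndufaf7, an arginine methyltransferase, gave the largest differences with the largest errors. It was -0.998 ± 0.65 in J20 against WT at 11-12 months (95% interval -2.35 to 0.36, adjusted p = 0.7, limma). Its values ran over 3.42 on the log2 scale between animals (pooled SD within groups 0.997, the widest of the members), and at 3 months the sign of J20 minus WT turned without WT animal 15, from 0.45 to -0.62. Ndufaf3, which with Ndufaf4 assists early assembly of the quinone-side module, was 0.20 ± 0.34 in J20 against WT at 5-6 months and -0.24 ± 0.34 in WT at 11-12 against 3 months. Ndufaf5, which hydroxylates an arginine of Ndufs7, was -0.12 ± 0.09 over the 3 ages (adjusted p = 1).

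The members varied less between animals of a group than tested genes at large, at high signal levels. Their median SD within groups was 0.197, beside 0.302 over all tested genes, and 20 of 38 were below 0.2, as were 18.8% of tested genes. Among probes with a mean log2 intensity of 12 or more the medians were 0.149 for 23 members and 0.175 for 628 genes. Below 12 they were 0.363 for 15 members and 0.312 for 7604 genes. The members did not vary as 1 block. The median correlation between pairs, across the 24 arrays after removing group means, was 0.06 over 703 pairs (quartiles -0.315 and 0.473) and 0.02 over all genes (quartiles -0.314 and 0.342). These arrays share slides and normalization, and the correlations are given as a description.

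The mean of the 38 members in each animal, each gene centred on its own mean, separated by BeadChip more than by group. All 8 animals of BeadChip 1 lay above 0, from 0.03 to 0.17, and all 8 of BeadChip 2 below 0, from -0.22 to -0.04. BeadChip 3 ran from -0.07 to 0.06. The group means were 0.01, 0.04 and 0.003 in WT and 0.04, -0.04 and -0.07 in J20, in order of age, and J20 of 11-12 months was the group with no animal on BeadChip 1. Within BeadChips, the median difference of the members in J20 against WT at 11-12 months was -0.10 on BeadChip 2 and 0.004 on BeadChip 3. At 3 months it was -0.10, -0.01 and -0.04, and at 5-6 months -0.01, -0.09 and -0.02, on BeadChips 1, 2 and 3. With BeadChip as a block 0 members were called in any of the 12 tests.

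**Figure D4:**
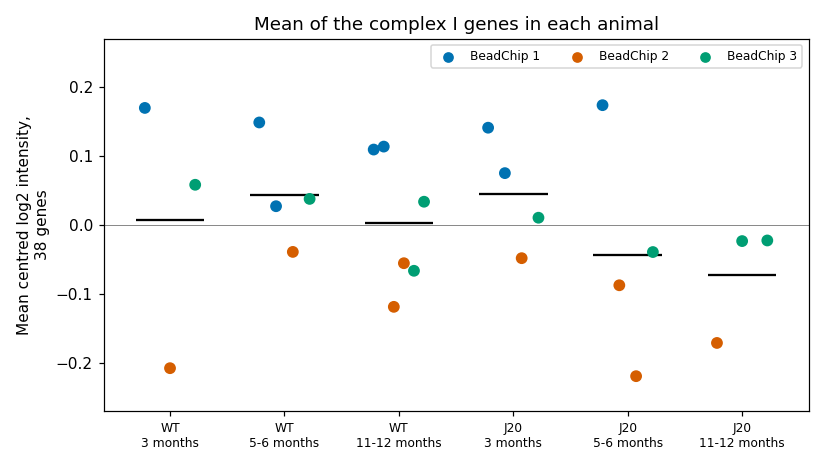
Mean over the 38 complex I genes of the centred log2 intensity (y axis) in each animal, by group (x axis) and coloured by BeadChip. Horizontal lines are group means. BeadChip 1 animals lie above 0 and BeadChip 2 animals below 0 in every group that holds them.

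A test of BeadChip beside group, added after the data were seen, called 18 of 38 members (limma's F test, Benjamini-Hochberg) and 34.8% of all probes. Between BeadChips 2 and 1, 14 members were lower on BeadChip 2 (16.5% of probes were) and 3 were higher (17.3% of probes). Between BeadChips 3 and 1, 2 members were lower (Ndufaf3 and Ndufb5; 1.3% of probes) and 0 higher (0.994%). Between BeadChips 3 and 2, 5 members were higher (12.5% of probes) and 3 lower (11.1%). None of the 17 members called between BeadChips 2 and 1 changed sign under the other 4 ways of scaling. Median scaling moved the median of all probes to -0.18 in that comparison, and left 16 members lower and 1 higher.

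By role, 8 of the 10 members of the distal membrane arm passed the F test, beside 34.8% of all probes. On BeadChip 2, 7 of the 10 were lower than on BeadChip 1 (16.5% of probes were). The median of the 10 was -0.46, beside 0.03 over all tested genes. It was -0.25 on the log2 values of the authors and -0.35 without the 3 arrays of lowest signal. Ndufb9 fell by 0.87 on the log2 scale (adjusted p = 0.00107) and Ndufb10 by 0.76 (adjusted p = 0.00238), both by limma. Ndufb11 ran from 5.68 to 6.49 on BeadChip 1, detected on all 8 arrays, and from 4.93 to 5.65 on BeadChip 2, detected on 2 of 8, with no overlap (adjusted p = 0.000525). The size of its difference is not given, since most BeadChip 2 values were not above background. Ndufb4 and Ndufb8 gave 0.02 ± 0.16 and 0.02 ± 0.07 and did not pass. Of the matrix arm 5 of 9 members passed the F test and of the proximal arm 2 of 7. Of the assembly factors 2 of 5 did and of the core 1 of 5, beside the same 34.8% of all probes.

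That core member was Ndufs3, 1.56-fold lower on BeadChip 2 (-0.64 ± 0.15 on the log2 scale, adjusted p = 0.00441). It ran from 11.39 to 12.18 on BeadChip 1, from 10.65 to 11.70 on BeadChip 2 and from 11.41 to 12.08 on BeadChip 3. Ndufa6 of the matrix arm ran from 13.42 to 13.70 on BeadChip 1 and from 12.72 to 13.33 on BeadChip 2, with no overlap (-0.53 ± 0.09, adjusted p = 0.000422). The members higher on BeadChip 2 were Ndufa10 (0.47 ± 0.11, adjusted p = 0.00509), Ndufs6 (0.29 ± 0.07, adjusted p = 0.00741) and Ndufv3 (0.24 ± 0.07, adjusted p = 0.0168). Without the 3 arrays of lowest signal (J20 11-12 months 35, J20 5-6 months 18 and WT 3 months 15), 11 members passed the F test, beside 16.9% of probes. Without WT 3 months animal 15 alone, 12 did, beside 24.1% of probes.

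**Figure D5:**
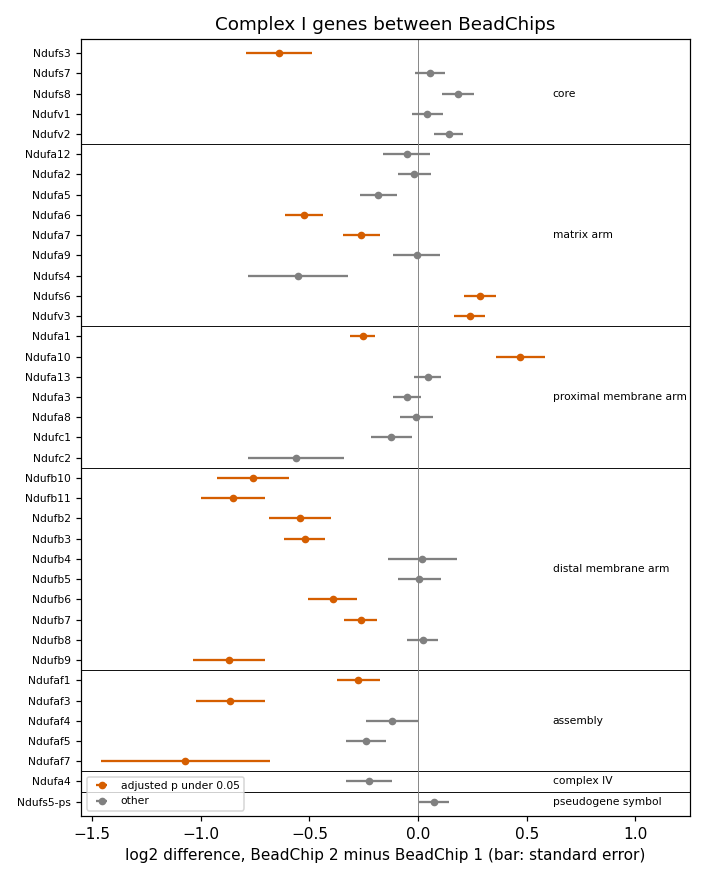
Log2 difference between BeadChips 2 and 1 (x axis, bars are standard errors) for each complex I gene (rows, by role), with group in the model and genes of adjusted p under 0.05 in orange. Of the 10 distal membrane arm genes 7 lie to the left in orange, and of the 5 core genes only Ndufs3.

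Probes of the same gene did not always give the same slide difference. All 4 probes of Ndufs4 were lower on BeadChip 2, by 0.34 to 0.74 on the log2 scale, and 2 of them passed (adjusted p = 0.0139 and 0.00227). For Ndufv3 the brightest probe was higher (0.24), while the other two were at -0.10 and -0.11 (adjusted p = 0.283 and 0.546). For Ndufa8 the brightest probe was at -0.01 and the second at -0.45 (adjusted p = 0.0326). Both probes of Ndufb6 were lower, by 0.39 and 0.85 (adjusted p = 0.013 and 5.46e-05).

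Other measures moved with BeadChip 2 too, and their part in the members' differences was not tested. The mean log2 upper quartile of signal was 8.39, 8.01 and 8.26 on BeadChips 1, 2 and 3. Of the epithelial markers, 5 of 10 tested were lower on BeadChip 2 than on BeadChip 1 and 0 higher (median -0.29), and their summed normalized intensity was 123021 to 137810 on BeadChip 1, 108335 to 121411 on BeadChip 2 and 125624 to 133778 on BeadChip 3. All 7 tested neuron markers were higher on BeadChip 2 (median 1.24), summed at 268 to 676, 348 to 5031 and 305 to 670. Of the 12 listed neuron markers, Snap25 and Nefl were detected on 0 arrays, Nefm on 1 and Gria1 on 2, and Grin1 has no named probe. Of stroma markers 3 of 4 were higher, of endothelium 3 of 4, of macrophages 2 of 3 and of myelin 2 of 4. Of ependymal markers 0 of 3 passed and of erythroid markers 0 of 2. Over all probes 17.3% were higher on BeadChip 2 than on BeadChip 1 and 16.5% lower.

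The other genes of oxidative phosphorylation gave the same count of 0 calls between groups. For complexes II to V 53 symbols were listed, some of them old and new names of the same gene. Of these, 34 were tested and 0 passed in any of the 10 comparisons. Their medians were 0.08, -0.07 and -0.05 in J20 against WT in order of age. The smallest unadjusted p was that of Sdhd, an anchor subunit of complex II, at -0.81 ± 0.32 in J20 at 5-6 against 3 months (unadjusted p = 0.0196, adjusted p = 0.961, limma). Cox7b was 0.42 ± 0.18 in J20 against WT at 11-12 months (unadjusted p = 0.0271, adjusted p = 0.7, limma). Of 10 further assembly factors of complex I 0 passed, and Tmem186 was 0.39 ± 0.18 in J20 at 11-12 against 3 months (adjusted p = 0.81). Of 9 regulators of mitochondrial genes 0 passed, and Nrf1 was 0.58 ± 0.25 in J20 against WT at 11-12 months (adjusted p = 0.7). Between BeadChips 2 and 1, 13 of the 34 genes of complexes II to V were lower on BeadChip 2 (16.5% of probes) and 1 was higher (17.3%). Their median was -0.18, beside -0.15 for the complex I members.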

How the data were processed

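Per the file headers, the authors deposited for each of 25697 probes a linear intensity on every array and its detection p-value. The intensities do not look normalized. The series matrix deposited by the authors holds log2 values. It was checked to equal the quantile-normalized log2 intensities to within 5e-09. RNA was extracted with the RNeasy Plus Micro kit and labelled with an Ambion MessageAmp kit, per the labels' protocols. The scanner and its software were not given in the sources used here.

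Intensities were background-corrected from the detection p-values (normexp, offset 16), quantile normalized and set to log2 with limma 3.58.1 (R 4.3.3). Probes below a detection p of 0.01 on at least 3 arrays were tested (11464), and 1 model with a mean per group was fitted to all 24 arrays. Symbols came from the platform's probe table, updated by gene identifier, where 23978 probes have 1 symbol and 1719 none or several. The members and all gene lists were chosen with earlier results of these data known. Named were members past the threshold, in each comparison the 3 members of smallest p and the highest and lowest difference, the core subunits, the 3 smallest p of the F test, and the largest and smallest spreads. Members printed for BeadChip differences, probes or non-overlap were named after their values were seen. The number of columns with per-animal values left out was 0. Alternatives were other background and scaling steps, detection filters, array weights, BeadChip as a block, the mean over probes and each animal left out. The number of arrays limits the precision.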

Additional observations from a re-analysis of the deposited data

Results flagged for a closer look

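In 3 of the 104 groups of 4 or more animals that were examined gene by gene, 1 animal stood far from the others by Dixon's gap test, and chance gives such a gap in about 1 of 20 groups. Ndufa13 was 14.77 in WT 5-6 months animal 10, above the other animals at 14.60 to 14.62 (log2 intensity, BeadChip 1). WT 11-12 months animal 12, on BeadChip 2, was high in both other cases. Ndufa2 was 13.64 there, above 13.51 in the nearest of the 5 others and 13.46 in the lowest. Ndufs7 was 13.14 there, above 12.9995 in the nearest animal. No pair of effects of genotype or age moved without overlap in opposite directions.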

How the results depend on the processing

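The count of members past the threshold between groups was 0 in 117 of 120 alternatives and in all 288 fits that left out 1 animal (lowest 0, highest 0). The exceptions came with array weights, set by the scatter of each array about the group means. These weights ran from 0.175 (WT 3 months animal 15) to 4.69 (J20 11-12 months animal 35). The latter array had the lowest upper quartile of signal, 7.44. Other arrays of low signal had small weights. These were WT 3 months animal 15 (0.175, upper quartile 7.90), J20 11-12 months animal 21 (0.33, 7.91) and J20 5-6 months animal 18 (0.341, 7.71). The weighted fits gave 2 members in J20 against WT at 11-12 months (Ndufb11 at -0.73, adjusted p = 0.0474, and Ndufb4 at 0.56, adjusted p = 0.0483), 1 in J20 at 11-12 against 3 months (Ndufb11 at -0.91, adjusted p = 0.0347) and 1 for any difference among the groups, while calling 267, 256 and 165 probes in all. The cause was not tested. Median scaling moved the members' median to -0.24 in J20 against WT at 11-12 months, -0.28 in J20 at 11-12 against 3 months and -0.20 in J20 at 11-12 against 5-6 months, where it moved the median of all probes to -0.23, -0.26 and -0.20. In J20 against WT at 3 months it moved the latter to 0.11. The count of members that differ between BeadChips was 12 to 21 with 1 animal left out and 11 without the 3 arrays of lowest signal.

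Of the single genes named by comparison, 395 of 412 alternatives and 1022 of 1032 fits without 1 animal kept direction and side of the threshold. Several signs turned with array weights, without WT 3 months animal 15 and without the 3 arrays of lowest signal, given here in that order with the highest value from leaving out 1 animal. For Ndufaf7 these were -0.2428, -0.6232, -0.6232 and 1.079 in J20 against WT at 3 months, and -0.2888, -0.6471, -0.6471 and 1.0551 in WT at 11-12 against 3 months. In WT at 5-6 against 3 months they were -0.1387, -0.3243, -0.3243 and 0.6047 for Ndufc2 and -0.0451, -9e-04, -9e-04 and 0.4761 for Ndufb3. For Ndufa12 in WT at 11-12 against 3 months they were -0.0716, -0.0895, -0.0895 and 0.2733. Ndufaf7 in WT at 11-12 against 5-6 months turned with array weights (-0.0136), without WT 11-12 months animal 6 (-0.0257) and without WT 5-6 months animal 10 (-0.2437, highest 0.3396). Ndufaf3 in J20 against WT at 5-6 months turned without J20 animal 4 (-4e-04) or WT animal 17 (-0.0471, highest 0.4178). Ndufb4 in J20 at 11-12 against 5-6 months turned without animal 21 (-0.0519, highest 0.5034). Ndufa8 there turned with median scaling (-0.0544) and with the mean over probes (-0.0072), and Ndufv3 in J20 at 5-6 against 3 months with the mean over probes (-0.0778). The cause was not tested. No paired analysis was possible because each animal number belongs to 1 animal. Signal over background limits Ndufb4 and Ndufb11, detected on 11 and 15 arrays.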
